A study of Mus musculus with 14 samples.

Results

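The 7 mouse sirtuins, Sirt1 to Sirt7, were followed in bulk RNA sequencing of kidneys before and after renal ischemia/reperfusion injury (IRI), an operation in which the blood supply of the kidney is interrupted and restored. The members were taken by gene symbol, and all 7 of 24411 genes in the count table, and all 7 of the 14300 genes that passed the filter on low counts, belonged to the family. Every library came from the kidney of male C57/B6 mice of 8 weeks. The 14 libraries fell into day 0 (n = 4), day 1 after IRI (n = 5) and day 3 after IRI (n = 5). The sources used here do not say whether the day 0 mice had a sham operation, nor whether each library is 1 animal, so the p-values measure the spread between these libraries.

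Sirtuins are enzymes that use NAD to remove acetyl or longer acyl groups from lysines, releasing nicotinamide. SIRT1, SIRT6 and SIRT7 work mainly in the nucleus and SIRT2 mainly in the cytoplasm. SIRT3, SIRT4 and SIRT5 are found in mitochondria, where SIRT3 removes acetyl groups, SIRT4 acts on several acyl groups of metabolic enzymes, and SIRT5 prefers succinyl, malonyl and glutaryl groups. The proximal tubule, which makes up most of the kidney cortex, is rich in mitochondria and is the segment that ischemia injures most. Only transcripts were measured here, not protein, NAD or lysine acylation.

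A second grouping cut across the days. The deposited libraries bear a number of either 1 digit or 3 digits. All 4 day 0 libraries had 1-digit numbers, day 1 held 3 libraries with 1-digit and 2 with 3-digit numbers, and day 3 held 2 with 1-digit and 3 with 3-digit numbers. No source used here says what the number format marks. A 3-digit library can be compared with a 1-digit library only within days 1 and 3, and against day 0 the number format and the injury cannot be told apart in the 3-digit libraries.

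Depth was of one order across the set. Between 12485579 and 20476979 reads per library lay on genes. The fewest reads on a sirtuin in any library were 66, on Sirt4, and the most were 1526, on Sirt2. Sirt4, Sirt5 and Sirt6 were the thinly counted members, with medians of 169, 172.5 and 132 reads per library, against 1255.5 for Sirt2. The 10 proximal tubule markers summed to 17461 to 18900 CPM (counts scaled to library size by TMM) at day 0, and none of them was at 0. After IRI their sum ranged from 4991 to 16917 CPM at day 1 and from 3237 to 15359 CPM at day 3, with 4 of 10 called lower at day 1 and 5 of 10 at day 3, where 18.7% and 13.8% of all genes were called lower. Thick limb and distal tubule markers summed to 6812 to 9426 CPM at day 0 and 2155 to 3293 CPM at day 3, with 5 of 6 called lower. Of the 7 markers of injured tubules, 6 were higher on each day, against 23.3% and 19.5% of all genes, and their sum went from 1174 to 1543 CPM at day 0 to 8461 to 37021 CPM at day 1 and 6667 to 44400 CPM at day 3. Neutrophil markers were also higher, with 5 of 5 tested (of 6 in the list) called on each day and sums of 1.33 to 2.07 CPM at day 0, 47.4 to 201 CPM at day 1 and 19.3 to 408 CPM at day 3. The 6 fibroblast and pericyte markers summed to 124 to 134 CPM at day 0 and to 522 to 1152 CPM at day 3, with 5 of 6 called higher, and all 5 proliferation markers were higher at day 3. Lymphocyte markers were too low to test in any comparison, at a sum of at most 1.09 CPM. In such bulk libraries fewer cells of a type and less RNA per cell cannot be told apart, and how far these shifts account for the sirtuin values was not tested.

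The 7 genes lie at separate loci on mm10 (GENCODE M21 positions). Sirt1 spans chr10:63319005-63381704 on the minus strand, Sirt2 chr7:28766735-28788661 on the plus strand, Sirt3 chr7:140863666-140882309 on the minus strand and Sirt4 chr5:115478010-115484725 on the minus strand. Sirt5 spans chr13:43365496-43395203 on the plus strand, Sirt6 chr10:81621785-81627797 on the minus strand and Sirt7 chr11:120618372-120625240 on the minus strand. Their merged exons cover between 2398 bases, in Sirt4, and 6093 bases, in Sirt5.

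Upstream sequence is shown for Sirt1 and Sirt5, since these had the 2 largest differences between the number formats at day 1, in opposite directions. RefSeq windows of 250 bases before a start site were used (GRCm38.p6), 9 of them for the 7 sirtuins, and the stretch that no annotated exon covers is printed. For Sirt1 this is chr10:63339051-63339285 on the minus strand, 235 bases, before the RefSeq start at 63339035, which lies 42669 bases inside the GENCODE gene since 1 annotated transcript begins farther upstream. For Sirt5 it is chr13:43365285-43365495 on the plus strand, 211 bases, before the RefSeq start at 43365535. Capitals mark matches, on either strand, to any of the motifs searched.
Sirt1: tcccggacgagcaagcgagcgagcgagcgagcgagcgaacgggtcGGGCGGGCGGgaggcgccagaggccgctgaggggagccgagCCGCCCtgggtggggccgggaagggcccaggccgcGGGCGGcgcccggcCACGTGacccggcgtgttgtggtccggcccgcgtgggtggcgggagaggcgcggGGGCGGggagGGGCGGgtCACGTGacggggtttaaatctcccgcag
Sirt5: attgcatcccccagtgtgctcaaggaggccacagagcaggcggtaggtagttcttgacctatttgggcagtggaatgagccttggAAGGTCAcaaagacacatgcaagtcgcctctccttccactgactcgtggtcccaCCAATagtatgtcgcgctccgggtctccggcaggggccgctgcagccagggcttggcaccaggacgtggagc
The Sirt1 stretch held 2 matches to the E-box CACGTG and 6 to the GC box GGGCGG, of which one pair overlapped. Of all 32851 RefSeq windows of 250 bases, 6.02% held this E-box and 32.7% this GC box. The full Sirt1 window was 79.2% G and C with 39 CpG pairs, against medians of 52.4% and 6 over all windows. The Sirt5 stretch held 1 match to AAGGTCA, the letters bound by estrogen-related receptors, which 4.08% of windows held, and 1 to CCAAT, which 33.8% held. The letters CACGTG were found in no window of the other 6 sirtuins, and AAGGTCA in none but that of Sirt5. These matches describe the letters only. The remaining motifs searched were CCGGAAG, a site of ETS factors found in 6.91% of windows, and that of NRF1, found in 0.782%. CCGGAAG lay in a window of Sirt3, Sirt6 and Sirt7, the NRF1 motif in a window of Sirt6, and none of the 6 motifs in that of Sirt4.

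At day 0 the sirtuins followed a clear order of level per length of merged exon. CPM were divided by the kilobases of exon merged over all annotated transcripts, which is not the length of any 1 transcript. The order rests on this divisor. In plain CPM at day 0 Sirt5, at 11.5, stood above Sirt6, at 7.56, and Sirt1, at 24.5, stood above Sirt4, at 14.2. Sirt2, the cytoplasmic tubulin and histone deacetylase, was highest at 17.3 ± 0.836 CPM per kb (SD, n = 4), followed by Sirt3, the mitochondrial deacetylase, at 13.6 ± 1.81 CPM per kb. Sirt7, the nucleolar member, stood at 6.98 ± 0.460 CPM per kb, Sirt4 at 5.91 ± 0.362 CPM per kb and Sirt1 at 4.59 ± 0.194 CPM per kb. Sirt6, a chromatin deacetylase, reached 2.72 ± 0.393 CPM per kb and Sirt5, the desuccinylase, 1.89 ± 0.270 CPM per kb. No neighbours in this order overlapped between libraries at day 0. Against 13766 genes with a known length, Sirt2 lay at percentile 79.9, Sirt3 at 75.1, Sirt1 at 50.1 and Sirt5 at 31.4.

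The order was less sharp after IRI. At day 1 Sirt2 was still highest per length, at 12.7 ± 1.45 CPM per kb, but its 10.9 to 14.6 overlapped the 6.21 to 15.0 CPM per kb of Sirt3. Sirt1 at 6.68 ± 3.10 and Sirt7 at 6.55 ± 1.51 CPM per kb also overlapped, as did Sirt4 at 3.33 ± 1.18 and Sirt6 at 2.84 ± 0.610 CPM per kb. At day 3 Sirt2 had 13.1 ± 1.00 CPM per kb and Sirt3 8.50 ± 4.16, and the lowest Sirt3 library, at 3.11 CPM per kb, fell below every library of Sirt1. Sirt1 and Sirt4 then stood side by side, at 3.48 ± 0.268 and 3.41 ± 0.726 CPM per kb. Sirt5 had the lowest mean on all 3 days.

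**Figure D1:**
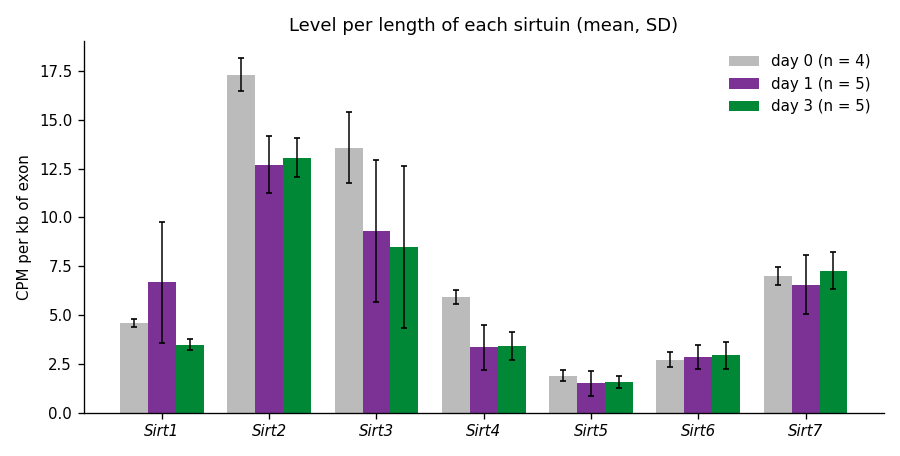
Level of each sirtuin per length, in CPM per kilobase of merged exon, at day 0 (n = 4), day 1 (n = 5) and day 3 (n = 5); bars are means and error bars SD. Sirt2 and Sirt3 stand highest and Sirt5 lowest on each day, and the SD of Sirt3 widens from 1.81 at day 0 to 4.16 at day 3.

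To ask which sirtuins changed after injury, days 1 and 3 were each compared with day 0. Sirt2 and Sirt4 fell on both days and were the only members called with all libraries together, by edgeR's quasi-likelihood test at a Benjamini-Hochberg adjusted p under 0.05 over the 14300 genes. At day 1, 2 of 7 members were called, both lower, where 42.1% of all genes tested were called, 23.3% higher and 18.7% lower. At day 3 the same 2 members were called lower, against 33.3% of all genes, 19.5% higher and 13.8% lower. The share of the family called in either direction was thus below that of all genes at day 1 and close to it at day 3. Days 1 and 3 share the 4 day 0 libraries.

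Sirt2 gave the steadiest fall. Its day 0 libraries had 87.3, 82.0, 87.4 and 92.3 CPM, its day 1 libraries 65.0, 68.0, 73.3, 58.7 and 54.9 CPM, and its day 3 libraries 65.2, 73.4, 60.9, 67.6 and 61.6 CPM. Every library after IRI was below every day 0 library, as for 20.5% of all genes at day 1 and 16.5% at day 3. The log2 fold change was -0.45 (SE 0.11, adjusted p = 0.00522) at day 1 and -0.41 (SE 0.11, adjusted p = 0.0113) at day 3, changes of -26.6% and -24.6%. In the 1-digit libraries alone it was -0.49 (SE 0.12, adjusted p = 0.00308) at day 1 and -0.43 (SE 0.13, adjusted p = 0.0148) at day 3. Without TMM scaling the day 3 call was lost, at -0.27 and adjusted p = 0.0929.

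Sirt4 fell more, from a lower level. It had 15.1, 14.6, 13.1 and 13.8 CPM at day 0, then 8.57, 11.3, 9.34, 3.77 and 7.0 CPM at day 1 and 8.19, 9.97, 9.60, 7.46 and 5.66 CPM at day 3. The days after IRI again lay wholly below day 0. The log2 fold change was -0.82 (SE 0.26, adjusted p = 0.0204) at day 1, a change of -43.5%, and -0.79 (SE 0.26, adjusted p = 0.0305) at day 3, a change of -42.2%. Within the 1-digit libraries (n = 3 at day 1 and 2 at day 3) it was -1.09 (SE 0.25, adjusted p = 0.00240) at day 1 and -1.11 (SE 0.29, adjusted p = 0.00625) at day 3. The day 1 call was lost without day 0 replicate 1 (-0.79, adjusted p = 0.0519), and the day 3 call was lost on leaving out any 1 of 7 libraries, namely any day 0 library or day 3 replicate 1, 4 or 5, with an adjusted p of up to 0.0734. Without TMM scaling the day 3 call was lost too (-0.65, adjusted p = 0.0943).

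Sirt1 split at day 1. The deacetylase of p53, FOXO and PGC-1α had 25.9, 23.6, 24.4 and 23.9 CPM at day 0. The 3 day 1 libraries with 1-digit numbers had 44.0, 38.9 and 57.1 CPM, above every day 0 library, and the 2 with 3-digit numbers had 19.2 and 18.9 CPM, below every one. The pooled day 1 change was 0.54 (SE 0.27, adjusted p = 0.120), with a 95% interval of -0.04 to 1.12. Within the 1-digit libraries Sirt1 rose by 0.93 on the log2 scale (SE 0.13, adjusted p = 6.55e-05), a fold of 1.90. With the number format as a term beside the day the change at day 1 was 0.72 (adjusted p = 0.0113), and leaving out day 1 replicate 1 or 2, the 3-digit libraries, also brought it past the threshold. Without day 1 replicate 5 it was 0.31 (adjusted p = 0.335).

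At day 3 Sirt1 was low in every library. The values were 17.0, 20.3, 17.1, 19.0 and 19.3 CPM, all 5 below all 4 of day 0. Its change from day 0 was -0.40 (log2, SE 0.27, adjusted p = 0.259) in the fit over all 3 days, whose spread for this gene includes the split at day 1. With only days 0 and 3 in the fit it was -0.42 (SE 0.10, adjusted p = 0.0127), and in the 1-digit libraries -0.36 (SE 0.15, adjusted p = 0.0654). With the number format as a term the direction turned, to 0.04 (adjusted p = 0.902). That term takes 1 format effect for both days, whereas the format effect on Sirt1 was -1.29 at day 1 and -0.08 at day 3. Sirt1 was the single member called between day 3 and day 1, at -0.94 (SE 0.26, adjusted p = 0.0251), where 15.9% of all genes were called. That call was lost with only these 2 days in the fit (adjusted p = 0.0748) and on leaving out day 1 replicate 3, 4 or 5 or day 3 replicate 1 or 3. The other 6 members differed between days 1 and 3 by -0.13 to 0.15, with adjusted p of 0.510 or more.

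The libraries of Sirt3 spread more widely within days 1 and 3 than the day means lay apart. It had 86.2, 84.6, 88.6 and 65.1 CPM at day 0. The day 1 libraries had 37.1 and 37.3 CPM with 3-digit numbers and 89.5, 51.2 and 62.8 CPM with 1-digit numbers. At day 3 the 3-digit libraries had 69.1, 78.0 and 55.6 CPM and the 1-digit libraries 32.5 and 18.6 CPM. The pooled changes against day 0 were -0.55 (SE 0.35, adjusted p = 0.224) at day 1 and -0.67 (SE 0.35, adjusted p = 0.154) at day 3, and both days overlapped day 0. In the 1-digit libraries alone Sirt3 fell at day 3 by 1.67 on the log2 scale (SE 0.26, adjusted p = 0.000242), to 0.315 of its day 0 level, and at day 1 its change was -0.26 (SE 0.21, adjusted p = 0.313).

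Sirt5 lay between these patterns. The day 0 libraries had 13.7, 11.7, 10.1 and 10.5 CPM. At day 1 the 3-digit libraries had 12.9 and 12.8 CPM, within the day 0 range, and the 1-digit libraries 8.72, 4.06 and 6.92 CPM, below it. The 3-digit libraries of day 3 had 10.3, 9.69 and 11.9 CPM and the 1-digit libraries 7.13 and 8.01 CPM. Pooled, the log2 fold change was -0.34 (SE 0.29, adjusted p = 0.356) at day 1 and -0.29 (SE 0.29, adjusted p = 0.454) at day 3. Leaving out 1 library moved the day 1 value between -0.53, without replicate 1 of that day, and -0.15, without replicate 4. Within the 1-digit libraries Sirt5 fell by 0.81 (SE 0.23, adjusted p = 0.00730) at day 1, and the day 3 value was -0.61 (SE 0.26, adjusted p = 0.0609). With the number format as a term both days passed the threshold, at -0.71 (adjusted p = 0.0155) and -0.75 (adjusted p = 0.0182).

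Sirt6 and Sirt7 were called in no comparison with TMM scaling and all libraries. Sirt6 had 7.56 ± 1.10 CPM (SD, n = 4) at day 0, 7.92 ± 1.70 at day 1 and 8.17 ± 1.88 at day 3 (n = 5 each). Its log2 fold change was 0.07 at day 1, with a 95% interval of -0.41 to 0.54, and 0.11 at day 3, with an interval of -0.36 to 0.58. Sirt7 had 35.9 ± 2.37 CPM at day 0, 33.7 ± 7.79 at day 1 and 37.4 ± 4.86 at day 3. Its log2 fold changes were -0.09, with an interval of -0.42 to 0.24, and 0.06, with an interval of -0.27 to 0.39.

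**Figure D2:**
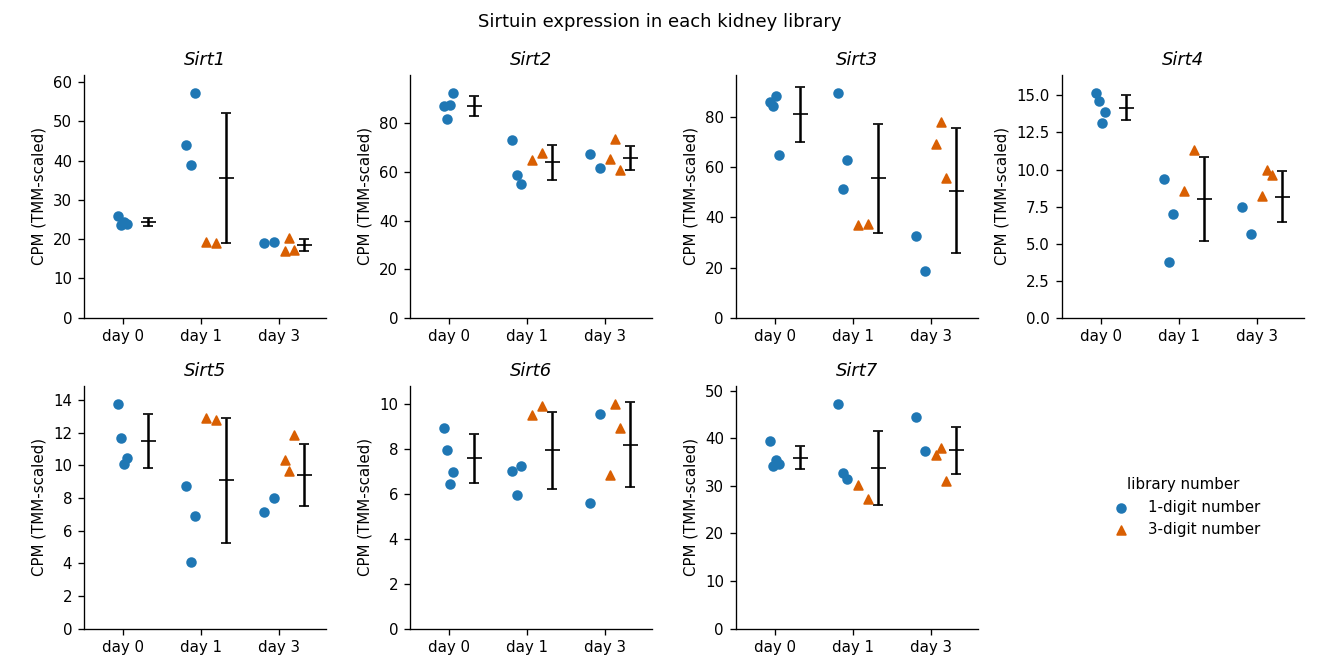
CPM of each sirtuin in each of the 14 libraries by day; circles are libraries with 1-digit numbers, triangles those with 3-digit numbers, and the bar beside each day is the mean with SD (n = 4, 5 and 5). All libraries after IRI lie below day 0 for Sirt2 and Sirt4, while the number formats do not overlap at day 1 for Sirt1, Sirt3, Sirt5, Sirt6 and Sirt7 and at day 3 for Sirt3, Sirt4 and Sirt5, where the formats did not overlap for 60.7% and 41.4% of all genes.

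**Figure D3:**
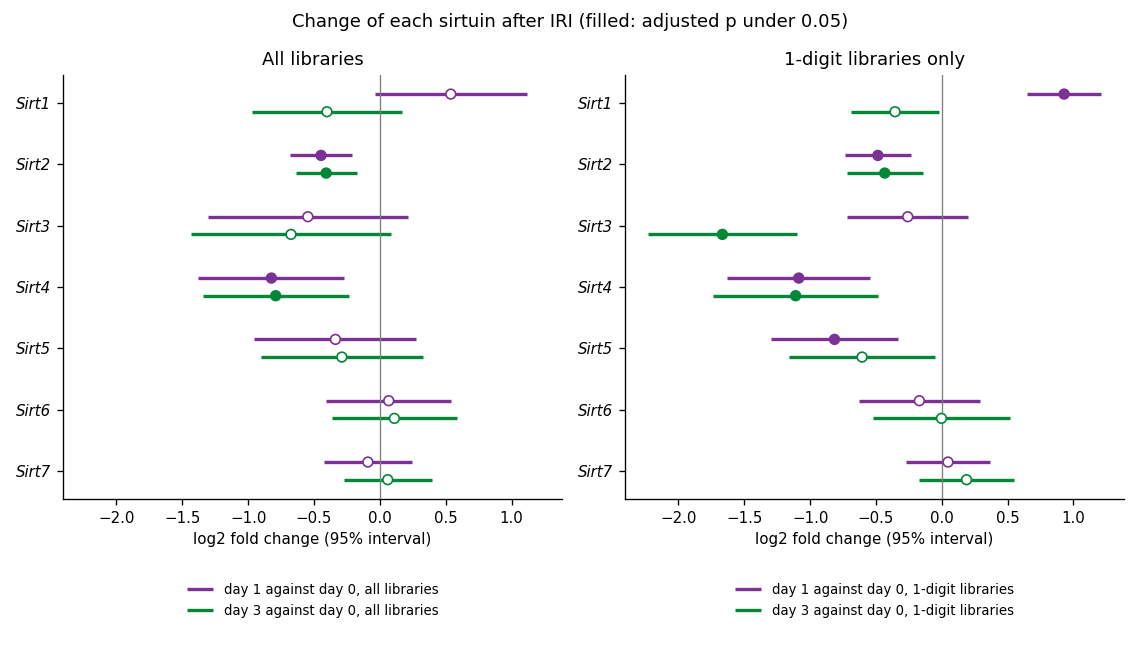
Log2 fold change of each sirtuin at day 1 and day 3 against day 0, with 95% intervals, from all 14 libraries (left) and from the 1-digit libraries (right); filled points have an adjusted p under 0.05. With all libraries Sirt2 and Sirt4 are called on both days, and in the 1-digit libraries Sirt1 and Sirt5 are added at day 1 and Sirt3 at day 3.

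In the 1-digit libraries more of the family was called. At day 1 against day 0 these were 4 of 7, Sirt1 higher and Sirt2, Sirt4 and Sirt5 lower, where 58.5% of all genes were called, 29.6% lower. At day 3 they were Sirt2, Sirt3 and Sirt4, all lower, where 53.7% of all genes were called, 25.1% lower. Counted in either direction, each share was close to or below the background. Between days 3 and 1 of the 1-digit libraries Sirt1 had a log2 fold change of -1.28 (SE 0.16, adjusted p = 0.000219) and Sirt3 of -1.41 (SE 0.27, adjusted p = 0.00216), against 32.0% of all genes called. Between days 3 and 1 of the 3-digit libraries Sirt3 was higher by 0.86 (SE 0.26, adjusted p = 0.0441), against 13.9% called, and this call was lost on leaving out any 1 of 8 libraries, with an adjusted p of up to 0.216. For Sirt3 the day 3 against day 1 changes of the 1-digit and 3-digit libraries thus had opposite signs. Leaving out day 3 replicate 5, which leaves 1 library in the 1-digit group of day 3, assumed to vary like the other groups, kept Sirt3 as the 1 call there against day 0, with adjusted p of 0.133 for Sirt2 and 0.0800 for Sirt4, and leaving out day 1 replicate 4 raised the count from 3 to 5.

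Within a day the number formats were compared directly. At day 1, 3 of 7 sirtuins differed between 3-digit and 1-digit libraries, where 35.0% of all genes did. Sirt1 was lower in the 3-digit libraries, with a log2 difference of -1.29 (SE 0.16, adjusted p = 0.000250), or 0.409 of the 1-digit level. Sirt3 was also lower, with a difference of -0.87 (SE 0.26, adjusted p = 0.0213), and Sirt5 was higher by 0.98 (SE 0.26, adjusted p = 0.0117), a fold of 1.97. Neither Sirt4, at 0.58 (adjusted p = 0.139), nor Sirt6, at 0.53 (adjusted p = 0.116), nor Sirt7, at -0.37 (adjusted p = 0.118), passed the threshold, although the formats did not overlap for Sirt6 and Sirt7, as for 60.7% of all genes at day 1. Sirt2 differed by 0.09, with an interval of -0.20 to 0.39. Without TMM scaling Sirt4 and Sirt6 passed too, and without day 1 replicate 3 Sirt4 passed (0.90, adjusted p = 0.0293). Leaving out either 3-digit library, where the 1 library left in that group is assumed to vary like the other groups, left Sirt1 as the single call, with adjusted p of 0.0888 and 0.117 for Sirt3 and 0.0513 and 0.0660 for Sirt5. Sirt3 also lost its call without day 1 replicate 3 (-0.62, adjusted p = 0.0742).

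At day 3 only Sirt3 was called between number formats, and in the other direction. It was higher in the 3-digit libraries by 1.40 (SE 0.27, adjusted p = 0.00730), a fold of 2.64, where 18.5% of all genes were called. The call was lost without day 3 replicate 5, at 1.03 and adjusted p = 0.0949, again with 1 library left in the 1-digit group. The formats also did not overlap for Sirt4 and Sirt5, with log2 differences of 0.49 each and adjusted p of 0.248 and 0.200, where they did not overlap for 41.4% of all genes. Sirt1, which had the widest split at day 1, differed by -0.08 at day 3, with an interval of -0.42 to 0.27. The difference of the format effects, day 3 minus day 1, was itself tested and was called for Sirt1, at 1.21 (SE 0.23, adjusted p = 0.00398), and for Sirt3, at 2.27 (SE 0.37, adjusted p = 0.00215), against 17.6% of all genes. For the other 5 members it ranged from -0.48 to 0.15, with no call. Sirt2, Sirt4, Sirt5 and Sirt6 had higher means in the 3-digit libraries on both days. At days 1 and 3 these were 66.5 and 66.5 CPM against 62.3 and 64.6 CPM for Sirt2 and 9.69 and 8.57 CPM against 6.73 and 7.57 CPM for Sirt6. For the others they were 9.94 and 9.26 CPM against 6.70 and 6.56 CPM for Sirt4 and 12.9 and 10.6 CPM against 6.57 and 7.57 CPM for Sirt5.

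**Figure D4:**
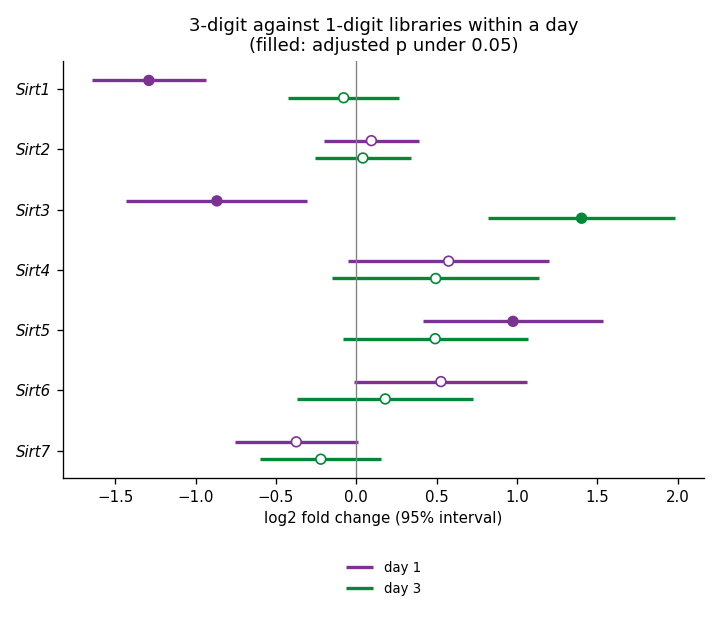
Log2 difference of 3-digit against 1-digit libraries within day 1 and within day 3 for each sirtuin, with 95% intervals; filled points have an adjusted p under 0.05. Sirt3 changes side between the days, from -0.87 to 1.40, and Sirt1 goes from -1.29 to -0.08.

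Proximal tubule markers went the same way as Sirt3 along this split. At day 1 the 10 proximal tubule markers summed to 10514 to 16917 CPM in the 1-digit libraries and to 4991 to 6044 CPM in the 3-digit libraries, and 5 of 10 were called lower in the latter, where 35.0% of all genes were called in either direction. At day 3 the sums were 3237 to 5747 CPM in the 1-digit and 7677 to 15359 CPM in the 3-digit libraries, and 4 of 10 were called higher in the latter, where 18.5% of all genes were called. Of the 6 thick limb and distal tubule markers, 2 were lower at day 1 and 2 higher at day 3. The summed markers of injured tubules went the other way, at 8461 to 16323 against 31256 to 37021 CPM at day 1 and 36655 to 44400 against 6667 to 33364 CPM at day 3. Of these 7 only 2 were called higher at day 1 and 1 lower at day 3, no more than the background, and Spp1, the most abundant, made up most of the sum, with means of 9701 and 27179 CPM at day 1 and 35078 and 17486 CPM at day 3. Markers of other cells differed by number format in some lists and not in others. Neutrophil markers were called in 0 of 5 on each day, and collecting duct markers in 1 of 7 on each day, higher. Proliferation markers were called in 0 of 5 at day 1 and urothelium markers in 0 of 5 at day 3. Of the 7 endothelial markers 1 was higher and 1 lower at day 1. Macrophage markers were called in 1 of 7 at day 1, higher, and at day 3 in 4 higher and 1 lower. Of the fibroblast and pericyte markers 3 of 6 were higher at day 1 and 2 lower at day 3, and of the endothelial markers 6 of 7 were lower at day 3. Urothelium markers, low in these kidneys, summed to 4.84 to 7.64 CPM in the 1-digit and 12.7 to 91.7 CPM in the 3-digit libraries of day 1, with 2 of 5 called higher. Of the 4 podocyte markers 1 was higher and 2 were lower at day 1, and 1 was lower at day 3. The 5 proliferation markers summed to 97.4 to 118 CPM in the 1-digit and 313 to 591 CPM in the 3-digit libraries of day 3, with 4 called higher. The part of any of these lists in the Sirt3 result was not tested. The 3 genes whose log2 CPM followed Sirt3 most closely over the 14 libraries were Hgd, of tyrosine breakdown (Pearson r = 0.973), Nnt, the mitochondrial transhydrogenase (r = 0.968), and Gcdh, glutaryl-CoA dehydrogenase (r = 0.967). These and the following correlations describe libraries that share days, number formats and cell composition.

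Hspe1, Clk4 and Hsp90aa1 were the genes most like Sirt1, at r = 0.978, 0.966 and 0.959. Hspe1 and Hsp90aa1 encode heat shock chaperones. Hspe1 had mean CPM of 172, 371 and 126 at days 0, 1 and 3, and Hsp90aa1 837, 2228 and 516. Among the genes most like Sirt2 were Vps53, of vesicle tethering, and Gfm1, a mitochondrial elongation factor (r = 0.960 and 0.954). Sirt4 was most like Pyurf, Mtif2, a mitochondrial initiation factor, and Echdc1 (r = 0.967, 0.966 and 0.963). Sirt5 had Enox2, Letmd1 and Recql5 as its closest genes (r = 0.935, 0.931 and 0.921). For Sirt6 they were Nup85, Hdac1 and Cad (r = 0.889, 0.883 and 0.853), and for Sirt7 Xpnpep1, Pcbp4 and Mgrn1 (r = 0.865, 0.856 and 0.822).

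Sirt3 shares its start region with Psmd13, which encodes a proteasome lid subunit and is read from the opposite strand. Their annotated starts lie 341 bases apart, with 342 exon bases in common. Psmd13 did not follow Sirt3. Its mean was 109 CPM at day 0, 158 CPM at day 1 and 148 CPM at day 3, with a day 1 rise of 0.54 (SE 0.18, adjusted p = 0.0259) and a day 3 value of 0.45 (adjusted p = 0.0685), while in the 1-digit libraries it rose on both days, by 0.46 (adjusted p = 0.0139) and 0.77 (adjusted p = 0.00130). In the 3-digit libraries of day 3, where Sirt3 was higher, Psmd13 was lower, with a log2 difference of -0.60 (SE 0.17, adjusted p = 0.0291). Reads were assigned by strand, and Sirt3 had 97.6% as many reads when strand was ignored.

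**Figure D5:**
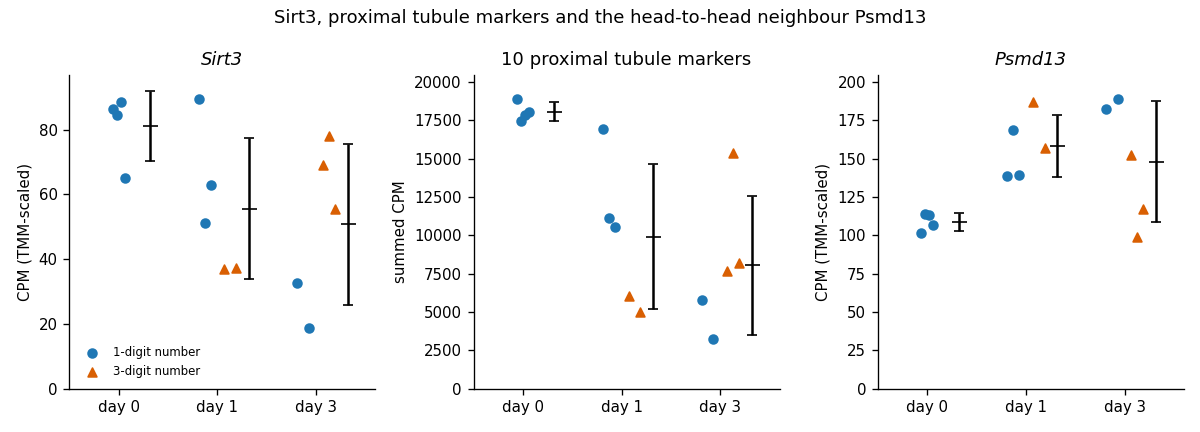
CPM of Sirt3 (left), the summed CPM of 10 proximal tubule markers (middle) and CPM of Psmd13 (right) in each library; circles are 1-digit and triangles 3-digit libraries, and bars show the mean with SD of each day (n = 4, 5 and 5). The 3-digit libraries lie below the 1-digit libraries at day 1 and above them at day 3 for both Sirt3 and the marker sum, and at day 3 the 1-digit libraries are the highest for Psmd13.

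The other neighbours had values of their own. Nfkbib, an inhibitor of NF-κB, overlaps the start of Sirt2 on the opposite strand with 42 exon bases in common, and it rose at day 1 by 1.00 (SE 0.22, adjusted p = 0.00309) while Sirt2 fell. Ignoring strand left Sirt2 with 74.4% of its reads, between 70.1% and 79.5% over libraries, the lowest share of the 7 members. Dnajc12, whose start lies 739 bases from the most upstream annotated start of Sirt1 on the opposite strand, fell at day 3 by 1.68 (SE 0.46, adjusted p = 0.0124), and Herc4, downstream of Sirt1, fell on both days, by 0.70 (adjusted p = 0.00666) and 1.03 (adjusted p = 0.000889). Ankrd24, 743 bases from the start of Sirt6, fell at day 1 by 1.26 (SE 0.34, adjusted p = 0.00905), and Pcyt2, of phospholipid synthesis, next to Sirt7, fell at day 3 by 1.30 (SE 0.35, adjusted p = 0.0113). Mafg, which overlaps Sirt7 by 124 exon bases on the same strand, was not called against day 0. Nol7 beside Sirt5, Bet1l beside Sirt3 and Pxn beside Sirt4 had changes of -0.29, 0.86 and 0.41 at day 1, of which that of Bet1l passed (adjusted p = 0.0117), and in the 1-digit libraries Pxn passed as well (0.66, adjusted p = 0.000261).

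Genes that make NAD, the cosubstrate of sirtuins, were called lower more often than higher. Of 16 in the list 12 were tested, and 5 were called at day 1, all lower, where 42.1% of all genes were called and 18.7% were called lower. At day 3, 1 was higher and 4 lower, against 33.3% of all genes called and 13.8% called lower. The list's median log2 fold change was -0.70 and -0.64, where that of all genes was 0.01 and 0.05. In the 1-digit libraries 6 were called at day 1, all lower, and 1 higher and 8 lower at day 3, where 29.6% and 25.1% of all genes were called lower, and the medians were -0.70 and -1.23. Nampt, which makes NMN from nicotinamide in the salvage route, had 256 ± 31.5 CPM at day 0, 214 ± 77.2 at day 1 and 266 ± 88.3 at day 3, with no call against day 0 over all libraries. In the 1-digit libraries it fell at day 1 by 0.70 (adjusted p = 0.0202), and at day 1 the 3-digit libraries exceeded the 1-digit ones by 0.92 on the log2 scale (adjusted p = 0.0188). The members called lower were Nmnat1, Kynu, Kmo, Afmid and Ido2 at day 1 and Naprt, Haao, Kmo and Ido2 at day 3. Of these, Ido2, Afmid, Kmo, Kynu and Haao act in the route from tryptophan, and Qprt, of the same route, was called against day 0 only in the 1-digit libraries at day 3 (-1.40, adjusted p = 0.0205). Ido2 fell by 2.32 (adjusted p = 0.0139) and 4.72 (adjusted p = 0.000614) on days 1 and 3, Kynu by 2.12 at day 1 (adjusted p = 0.00833), and Haao by 1.66 at day 3 (adjusted p = 0.0476). The day 3 fall of Haao was 3.86 in the 1-digit libraries (adjusted p = 1.71e-06). Haao, like Sirt3, was lower in the 3-digit libraries at day 1, at -1.82 (adjusted p = 0.000353), and higher at day 3, at 2.80 (adjusted p = 0.000934).

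Other users of NAD or nicotinamide, listed together with Acmsd of the tryptophan route, changed in both directions. Of 12 in the list 11 were tested, with 2 higher and 1 lower at day 1 and 4 higher and 1 lower at day 3, where 42.1% and 33.3% of all genes were called and calls were likewise more often higher than lower. The medians were 0.02 and 0.41. With 1-digit libraries 2 were higher and 4 lower at day 1, and 2 higher and 2 lower at day 3, against 58.5% and 53.7% of all genes. Nnmt, which methylates nicotinamide, rose by 1.62 (adjusted p = 0.0102) and 2.66 (adjusted p = 0.000696), from 0.226 CPM to 0.696 and 1.47 CPM. Parp14, an ADP-ribosyltransferase, rose by 0.93 (adjusted p = 0.00729) and 1.04 (adjusted p = 0.00539), but its day 3 call was lost in the 1-digit libraries (0.60, adjusted p = 0.0629). Acmsd, which diverts the tryptophan route away from NAD, had 184 ± 9.27 CPM at day 0, 50.1 ± 49.3 at day 1 and 40.5 ± 52.1 at day 3, with adjusted p of 0.117 and 0.0872, and in the 1-digit libraries it fell at day 3 by 5.10 (adjusted p = 0.000170). It differed by number format in the same directions as Sirt3, with -3.70 (adjusted p = 0.00218) at day 1 and 3.57 (adjusted p = 0.00875) at day 3. Tnks2, the other abundant member, had 133, 135 and 156 CPM and no call.

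The zinc-dependent histone deacetylases, which work without NAD, changed in both directions. Among 10 tested of 11, 2 were higher and 2 lower at day 1, and 3 higher and 1 lower at day 3, with medians of 0.07 and 0.13. These 4 of 10 on each day compare with 42.1% and 33.3% of all genes. The 1-digit libraries gave 2 higher and 2 lower at day 1, and 3 higher and 3 lower at day 3, against 58.5% and 53.7% of all genes. Hdac7 rose by 1.36 (adjusted p = 0.000156) and 1.14 (adjusted p = 0.000711), and Hdac6, which like SIRT2 deacetylates tubulin, rose by 1.10 (adjusted p = 0.000594) and 0.53 (adjusted p = 0.0402). Hdac11 fell by 0.70 (adjusted p = 0.00343) and 0.56 (adjusted p = 0.0151), and Hdac2 was called against day 0 only in the 1-digit libraries at day 3 (-0.58, adjusted p = 0.0169). A list of 10 acetyltransferases held lysine acetyltransferases, which add the group that sirtuins remove, and Naa10, an N-terminal acetyltransferase. Of these, 2 were higher and 2 lower at day 1, and 1, Kat7, was called at day 3, against 42.1% and 33.3% of all genes. In the 1-digit libraries 2 were higher and 3 lower at day 1, and 1 higher and 2 lower at day 3. There 58.5% and 53.7% of all genes were called. Kat7 rose on both days, by 1.18 (adjusted p = 0.00186) and 0.93 (adjusted p = 0.00918), Kat6a fell at day 1 by 0.65 (adjusted p = 0.00115) and Kat2b by 0.38 (adjusted p = 0.0226).

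Among 15 regulators and nuclear partners of Sirt1, 4 were higher and 3 lower at day 1, and 2 higher and 3 lower at day 3, close to the 42.1% and 33.3% of all genes called. The medians, 0.07 and 0.08, stayed near those of all genes. Among 1-digit libraries 4 were higher and 3 lower at day 1, and 4 higher and 4 lower at day 3, against 58.5% and 53.7% of all genes. Rela, the NF-κB subunit that SIRT1 deacetylates, rose at day 1 by 2.09 (adjusted p = 0.000967), and Hif1a rose by 0.59 (adjusted p = 0.0106). Esr1, the estrogen receptor α, fell by 2.81 (adjusted p = 0.000170) and 2.17 (adjusted p = 0.00115). Ppara, the fatty acid sensor, rose at day 3 by 1.19 (adjusted p = 0.0242).

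Of the 10 genes of mitochondrial biogenesis, 2 were higher and 2 lower at day 1, and 1 higher and 2 lower at day 3, close to the 42.1% and 33.3% of all genes called. Within the 1-digit libraries 3 were higher and 3 lower at day 1, against 58.5% of all genes, and 4 were called at day 3, all lower, against 25.1% of all genes called lower. Ppargc1a, the coactivator PGC-1α and a SIRT1 substrate, fell by 1.74 (adjusted p = 5.17e-05) and 1.05 (adjusted p = 0.00206), and its relative Pprc1 rose by 1.74 (adjusted p = 2.47e-05) and 0.57 (adjusted p = 0.0257), the latter lost in the 1-digit libraries (0.45, adjusted p = 0.0771). Polrmt, the mitochondrial RNA polymerase, fell by 0.64 (adjusted p = 0.0162) and 0.70 (adjusted p = 0.0129). Esrra, at 142, 83.2 and 85.0 CPM, and Gabpa, at 65.9, 65.7 and 56.6 CPM, were not called, although in the 1-digit libraries Esrra fell at day 3 by 1.32 (adjusted p = 0.00856) and Gabpa rose at day 1 by 0.25 (adjusted p = 0.0432).

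Most of the called substrates of the mitochondrial sirtuins fell. Of the 19 counted here 17 were tested, with 8 called at day 1, all lower, and 2 higher and 10 lower at day 3, and medians of -0.46 and -0.50. Of all genes 42.1% and 33.3% were called, and 18.7% and 13.8% were called lower. From the 1-digit libraries 8 were called at day 1, all lower, and 3 higher and 10 lower at day 3, against 29.6% and 25.1% of all genes called lower, with medians of -0.45 and -0.66. Acadm, the medium-chain acyl-CoA dehydrogenase, fell by 1.42 (adjusted p = 0.000271) and 1.59 (adjusted p = 0.000184), and Sdha, of respiratory complex II, by 0.63 (adjusted p = 0.0333) and 0.91 (adjusted p = 0.00686). Idh2, a SIRT3 substrate of the citrate cycle, fell by 1.08 (adjusted p = 0.0144) and 1.18 (adjusted p = 0.0120). Ogdh, of the 2-oxoglutarate dehydrogenase complex, fell by 1.09 (adjusted p = 0.00575) and 1.18 (adjusted p = 0.00496), and Mccc1, of leucine breakdown, by 1.01 (adjusted p = 0.0283) and 1.92 (adjusted p = 0.00120). Glud1, glutamate dehydrogenase, rose at day 3 by 1.02 (adjusted p = 0.0141). Uox, the urate oxidase, was called at day 3, at 4.10 (adjusted p = 0.0329), but its mean there was 0.636 CPM.

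Of the 4 ketone body enzymes counted here, 3 were called on each day, all lower, against 18.7% and 13.8% of all genes called lower, and the median was -1.10 and -2.09. The 1-digit libraries also gave 3 on each day, all lower, where 29.6% and 25.1% of all genes were called lower. The medians there were -0.81 and -2.91. Bdh1 fell by 1.86 (adjusted p = 0.000144) and 2.85 (adjusted p = 1.08e-05), Oxct1, which starts ketone use, by 1.16 (adjusted p = 0.0460) and 2.59 (adjusted p = 0.000975), and Acat1 by 1.05 (adjusted p = 0.0137) and 1.59 (adjusted p = 0.00178). A further list held 10 genes whose products make, carry or transfer succinyl, malonyl or lipoyl groups. Of these, 4 were called at day 1 and 5 at day 3, all lower, where 18.7% and 13.8% of all genes were called lower. The medians were -0.36 and -0.45. In the 1-digit libraries 1 was higher and 3 lower at day 1, and 1 higher and 8 lower at day 3, against 29.6% and 25.1% of all genes called lower, with medians of -0.33 and -0.71. Dbt, of branched-chain amino acid breakdown, fell by 1.52 (adjusted p = 0.000144) and 1.07 (adjusted p = 0.00195), Sucla2, of succinyl-CoA ligase, by 0.47 (adjusted p = 0.0395) and 0.87 (adjusted p = 0.00185), and Acsf3, the malonyl-CoA synthetase, by 1.03 at day 3 (adjusted p = 0.000465). The day 1 call of Sucla2 was lost in the 1-digit libraries (-0.23, adjusted p = 0.0961). Suclg2 and Dlst, the most abundant of this list, were not called with all libraries, and in the 1-digit libraries they fell at day 3, by 0.78 (adjusted p = 0.00824) and 0.58 (adjusted p = 0.00879).

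Of the 5 genes counted here that the study followed around Sirt5, Cnn2 and Ppara were expressed enough to test. Cnn2, which encodes calponin 2, rose by 0.88 (adjusted p = 0.0371) and 1.11 (adjusted p = 0.0157). Its day 1 call was lost in the 1-digit libraries, at 0.18 (adjusted p = 0.344), while the day 3 rise was 1.34 (adjusted p = 7.05e-05). At day 1 it was higher in the 3-digit libraries by 1.34 (adjusted p = 0.000418), as was Sirt5. Esr2, Foxa2 and Fgf21 had mean CPM of at most 0.359, 0.0459 and 0.639 on any day. The list was drawn from the paper, which measured Foxa2, Ppara, Fgf21 and ESR2 in kidneys with and without CNN2 knockdown. Its bulk RNA sequencing of kidneys after IRI already reported the rise of Cnn2, so the count here is not independent evidence.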

How the data were processed

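Total RNA of mouse kidneys (TRIzol, Illumina TruSeq) was sequenced. The authors trimmed the reads and counted them per gene with STAR on mm10, and the submitters' processing notes name Trimmomatic and STAR with no version, so versions are not given in the sources used here. The deposited tables hold raw read counts per gene, not normalized, in an unstranded column and in 1 column for each strand. The column of the opposite strand was used, which held 98.5% to 98.7% of the reads counted on either strand. Entries that name no gene took 29.0% to 38.3% of a library and were left out. Groups came from the sample titles.

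Counts were filtered (filterByExpr), scaled by TMM and tested with edgeR 4.0.16 (R 4.3.3, glmQLFit and glmQLFTest) in a fit with 1 term per day over all 14 libraries, and in a second fit with 1 term for each day and number format. The study's statistics name tests of group means and no count model, so a count model was chosen for the counts. P-values were adjusted by Benjamini-Hochberg over 14300 genes at 0.05. CPM are TMM-scaled, and 95% intervals come from the quasi-likelihood fit. Scripts were tested on simulated data. DESeq2 1.42.0, other scalings, filters, the unstranded column and leaving out each library were tried. The sirtuins and the gene lists were chosen with earlier results of these data known. For each list the 2 genes of highest mean CPM and the 2 called genes of largest change on each day were named (Idh2 was added after its values were seen), and for each sirtuin the 3 genes of highest correlation. Depth was 12485579 to 20476979 reads on genes per library, of which 66 to 282 lay on each of Sirt4, Sirt5 and Sirt6, where counting error weighs most. A gene of the lists of mitochondrial sirtuin substrates, ketone body enzymes and genes followed around Sirt5, and a gene correlated with Sirt2, are not reported here, so the counts, medians and directions of those lists cover the remaining members only and were taken after the values were seen.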

Additional observations from a re-analysis of the deposited data

Results flagged for a closer look

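Among the 21 sets of sirtuin CPM by gene and day, 2 had a library far from the rest by Dixon's criterion, where chance gives about 1.05. Sirt3 had 65.1 CPM in day 0 replicate 4, against 84.6 to 88.6 CPM in the other 3 day 0 libraries. Sirt7 had 47.2 CPM in day 1 replicate 3, against 27.2 to 32.8 CPM in the other 4 day 1 libraries.

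The difference between 3-digit and 1-digit libraries was not the same on both days for 2 members, by a test of the difference itself. For Sirt1 the difference of the format effects, day 3 minus day 1, was 1.21 on the log2 scale (edgeR, adjusted p = 0.00398), and for Sirt3 it was 2.27 (edgeR, adjusted p = 0.00215).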

How the results depend on the processing

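Sirt2 and Sirt4 stayed lower than day 0 on both days under every alternative run, and the limits are the 2 or 3 libraries per number format and day, and the low counts of Sirt4, Sirt5 and Sirt6. With the number format as a term, 4 members in place of 2 were called at day 1 against day 0. Without TMM scaling 0 members in place of 2 were called at day 3 against day 0 by edgeR (DESeq2 called 2), and 5 in place of 3 between number formats at day 1. With only the 2 days in the fit 0 in place of 1 were called at day 3 against day 1. The causes were not tested. Leaving out 1 library gave 1 to 3 calls at day 1 and 1 to 2 at day 3 against day 0, 0 to 1 at day 3 against day 1, 1 to 3 between formats at day 1 and 0 to 1 at day 3, 1 to 5 for 1-digit libraries at day 3 against day 0 and 0 to 1 for 3-digit libraries at day 3 against day 1.

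Several values that passed no threshold with all libraries changed sign, most of them near 0. With the number format as a term these were, against day 0, Sirt6 (-0.10) and Sirt7 (0.017) at day 1 and Sirt1 (0.041) and Sirt6 (-0.11) at day 3, where Sirt1 was -0.40 without that term, and, for day 3 against day 1, Sirt4 (-0.066), Sirt5 (-0.041) and Sirt6 (-0.0090). For day 3 against day 1, Sirt2 turned with the unstranded column (-0.047) and Sirt3 without TMM (0.062). Leaving out 1 library moved Sirt6 between -0.035 and 0.16 at day 1 and Sirt7 between -0.0085 and 0.10 at day 3 against day 0. For day 3 against day 1 it moved Sirt2 between -0.012 and 0.091, Sirt3 between -0.33 and 0.11, Sirt4 between -0.15 and 0.19, Sirt5 between -0.14 and 0.21 and Sirt6 between -0.045 and 0.15. Between formats at day 3 it moved Sirt2 between -0.045 and 0.11 and Sirt6 between -0.16 and 0.60.

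Same-numbered libraries correlated at -0.17 to 0.26 in their deviations from the day means. Differently numbered libraries were not compared, so whether the replicate numbers pair the libraries was not tested. With the replicate block, 2, 2 and 1 members were called in the day comparisons, as without it, and Sirt1 at day 1 against day 0 was 0.33 (adjusted p = 0.345).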
